A study of Mus musculus with 80 samples.

Results

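The genes described here are 35 genes of the routes that burn acetyl groups, fatty acids and ketone bodies in mouse gastrocnemius, the large muscle of the calf. They were chosen by name and not by a threshold on measured values: 13 genes of the tricarboxylic acid (TCA) cycle and 22 genes of fatty acid and ketone oxidation. All 35 were listed in the table of 12853 genes measured in males and in the table of 11068 genes measured in females, and none was lost to the filter on low values. The mice were of strain C57BL6/J, and the labels name no other allele. Hindlimb unloading, in which the hind legs are kept from bearing weight, lasted 24, 48, 72 or 168 h, and mice labelled Control (0 h) were not unloaded. Male libraries numbered 7, 8, 9, 9 and 8 at 0, 24, 48, 72 and 168 h, and female libraries 8, 8, 8, 8 and 7, making 80 in all, where the study's text gives 8 mice per group. Labels name neither the age of the mice nor whether any animals were pooled. Each library was taken as 1 mouse, so p-values measure the spread between these libraries.

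Citrate synthase joins acetyl groups to oxaloacetate, and the cycle then releases them as carbon dioxide while it loads electrons onto NADH and FADH2 for the respiratory chain. Long-chain fatty acids enter the fibre with the help of CD36 and FABP3, are tied to coenzyme A by ACSL1 and cross the inner mitochondrial membrane as carnitine esters by way of CPT1B, SLC25A20 and CPT2. Beta-oxidation then shortens them in repeated rounds, and the flavoproteins ETFA, ETFB and ETFDH carry part of the electrons to ubiquinone. Ketone bodies made by the liver are oxidised in muscle by BDH1, OXCT1 and ACAT1, which return acetyl-CoA to the cycle. Slow and intermediate fibres are rich in all these enzymes, and fast glycolytic fibres, which make up most of the mouse gastrocnemius, hold less.

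The values are the authors' deposited signal, a normalized value per gene and library, and a change is a difference of log2 (signal plus 1) between groups. A gene was called, and is said to have risen or fallen, where limma's moderated test gave an adjusted p under 0.05 over all genes of its table. The 4 times of a sex share the same 0 h libraries, so their changes are not independent. Estimated depth was 18.0 to 49.7 M reads per male library. Female libraries held 5.57 to 50.5 M, and those at 24 h (6.42 to 11.8 M) and 72 h (5.57 to 9.63 M) were the shallowest. The numbers in the library titles run on within male 0 and 168 h, within male 24 and 48 h apart from replicate 5 at 48 h, within female 0 and 48 h and within female 24 and 72 h. Of the 9 male libraries at 72 h, replicates 1 and 2 are numbered with the controls and the other 7 apart from them, in a series that starts with replicate 5 of male 48 h. Whether these numbers mark separate preparations is not stated, and where they differ between the groups compared the time and the numbering cannot be told apart. 7 female libraries stood apart from their groups, with a median Spearman correlation under 0.95. In RNA from whole muscle, fewer fibres of a type and less RNA per fibre cannot be told apart. Fast fibre markers took 9.57% to 16.9% of the signal in every library, and none of these 11 markers of the labelled tissue was listed at 0.

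In males more of these genes were called lower at each later time, and in females 11 were already lower at 48 h. The difference between the sexes was called for no member at any time. At 24 h, 2 of 35 genes rose in males (Slc25a20 and Cpt2) and 2 fell (Bdh1 and Oxct1), where 14.8% of all male genes were called higher and 14.4% lower. The 5.71% of members in each direction lay under that background. At 48 h, 3 rose (Slc25a20, Cpt2 and Acadl) and 5 fell (Idh3a, Dlst, Mdh1, Bdh1 and Oxct1), where 16.3% of all genes were called higher and 14.7% lower, so the lower share of 14.3% was close to the background. At 72 h, 9 fell and 0 rose, where 5.22% of all genes were called lower and 5.61% higher, and the members' lower share was 25.7%. At 168 h, 21 fell and 0 rose, a lower share of 60% where 11.5% of all genes were called lower and 11.0% higher. At both of these times 0 members were higher at an unadjusted p under 0.05 in limma, and 0 were higher in the authors' deposited table.

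In females, 9 of 35 genes rose at 24 h and 0 fell, where 13.8% of all female genes were called higher and 10.9% lower. These 9 were Idh3g, Cd36, Slc25a20, Cpt2, Acadvl, Acadl, Hadhb, Etfa and Etfdh. The higher share of 25.7% depended on the scaling: with quantile normalization 4 members rose and 2 fell, and with every library brought to the same total 7 rose and 1 fell. At 48 h, 1 rose (Acadl) and 11 fell, where 21.0% of all genes were called higher and 17.1% lower. At 72 h, 15 fell and 0 rose, a lower share of 42.9% where 13.2% of all genes were called lower and 16.8% higher. At 168 h, 7 fell and 0 rose, a lower share of 20.0% where 4.38% of all genes were called lower and 6.3% higher. At 72 and 168 h, 0 members were higher at an unadjusted p under 0.05 in limma, and 0 in the authors' deposited table. In males at 24 h, quantile normalization and equal totals each left 1 gene higher and 3 lower.

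Over the 8 comparisons with 0 h, 21 of the 35 genes were called lower only, 5 higher only, 4 in both directions and 5 in none. Those called in none were Idh3b, Ogdh, Dld, Etfb and Acat1. The 4 called in both directions were Cpt2, Hadhb, Etfa and Etfdh, each higher at 24 h in at least 1 sex and lower in males at 168 h. No gene was called in opposite directions in males and females at the same time. These counts over several comparisons were not made for all genes, so they have no background here.

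**Figure D1:**
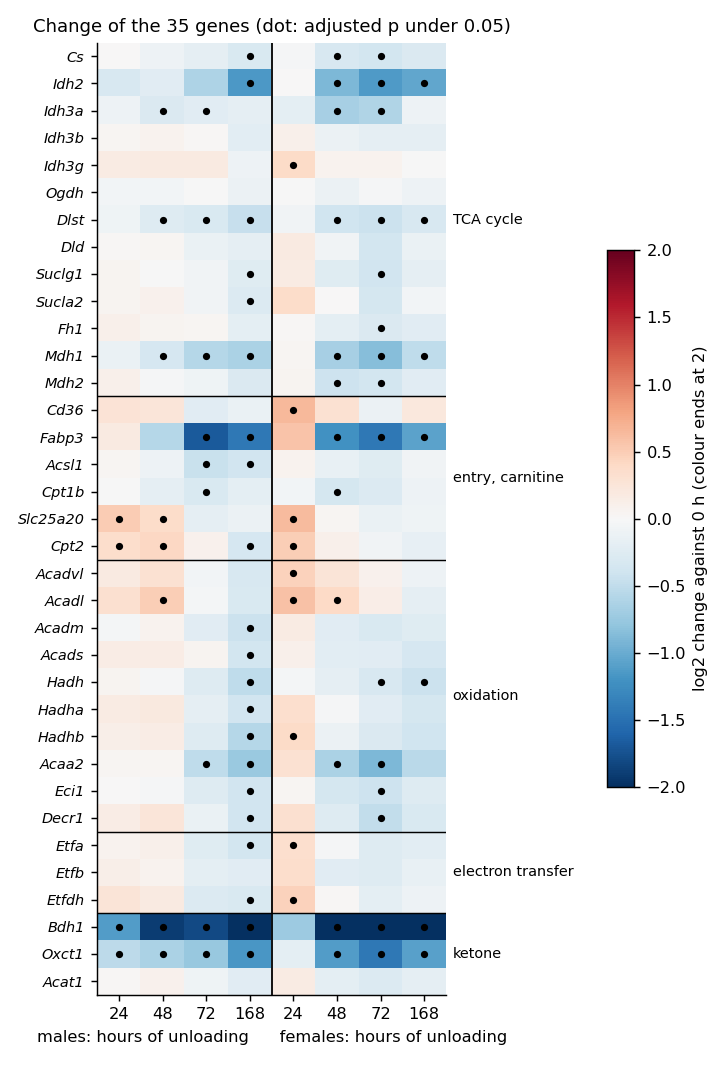
Log2 change against 0 h of the 35 genes (rows, grouped by role) at each time in males (left 4 columns) and females (right 4 columns), with a dot where the adjusted p was under 0.05 and colours that end at 2. Blue fills the male 168 h and female 72 h columns, red stands at 24 h in the carnitine, oxidation and electron transfer rows, and Bdh1 is the darkest blue row.

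The ketone genes Bdh1 and Oxct1 were each called lower in 7 of the 8 comparisons, more than any other member, and in males they were the 2 members that fell at 24 h. Bdh1 (ENSMUSG00000046598, chromosome 16, 31241098 to 31277720, forward strand, as the tables give positions) encodes the dehydrogenase that turns 3-hydroxybutyrate into acetoacetate. Its lowest, median and highest male signals were 578, 1697 and 2397 at 0 h and 256, 573 and 1318 at 24 h. They were 149.9, 377 and 628 at 48 h, 174, 388 and 717 at 72 h and 79, 301 and 393 at 168 h. The male group at 168 h lay wholly below the controls, and the groups at 24, 48 and 72 h still overlapped them. Female signals were 386, 499.8 and 783 at 0 h, 181, 296 and 582 at 24 h and 10.3, 85.9 and 195 at 48 h. They were 31.0, 101.04 and 170.9 at 72 h and 47.7, 131 and 295 at 168 h. Every female library at 48, 72 and 168 h lay below every female control, and those at 24 h overlapped.

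The male changes of Bdh1 were -1.11 (SE 0.35, adjusted p = 0.016), -1.90 (SE 0.34, adjusted p = 6.1e-05), -1.81 (SE 0.34, adjusted p = 5.3e-04) and -2.25 (SE 0.35, adjusted p = 2.3e-05) at the 4 times. The last of these is a ratio of 0.21 to the controls, and 8 of 8 libraries lay below the control mean. In females the change at 24 h was -0.73 (SE 0.40, adjusted p = 0.18) and was not called. It was -2.78 (SE 0.40, adjusted p = 1.2e-06) at 48 h, -2.54 (SE 0.40, adjusted p = 8.2e-06) at 72 h and -2.14 (SE 0.41, adjusted p = 5.2e-04) at 168 h. Bdh1 was also among the most variable members in male controls, with a coefficient of variation of 47.6%.

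Oxct1 (ENSMUSG00000022186, chromosome 15, 4055865 to 4184827, forward strand) encodes the CoA transferase that activates acetoacetate, the step that lets muscle burn ketone bodies and that the liver lacks. Male signals had a lowest, median and highest of 12060.5, 16215 and 19098 at 0 h, 8925, 10613 and 14080.4 at 24 h and 6074, 9224 and 13191 at 48 h. They were 6171, 9388 and 12506 at 72 h and 4828, 6394 and 9714 at 168 h, where all 8 libraries lay below all 7 controls. Female signals were 5417, 6179.9 and 7456 at 0 h, 3769.8, 5535 and 7054 at 24 h and 1683, 3177 and 4079 at 48 h. They were 1660.0, 2403 and 2967 at 72 h and 1709.8, 2932 and 4545 at 168 h, and from 48 h on none reached the lowest control. Oxct1 changed by -0.52 (SE 0.15, adjusted p = 0.0071) at 24 h and by -1.17 (SE 0.15, adjusted p = 4.8e-07) at 168 h in males, with -0.64 and -0.76 between. In females it was -0.19 (SE 0.17, adjusted p = 0.42) at 24 h, not called, then -1.11 at 48 h, -1.42 (SE 0.17, adjusted p = 6.6e-08) at 72 h and -1.08 at 168 h. Acat1, the thiolase that splits acetoacetyl-CoA, was called at none of the 8, with changes from -0.27 in females at 72 h to 0.17 in females at 24 h.

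**Figure D2:**
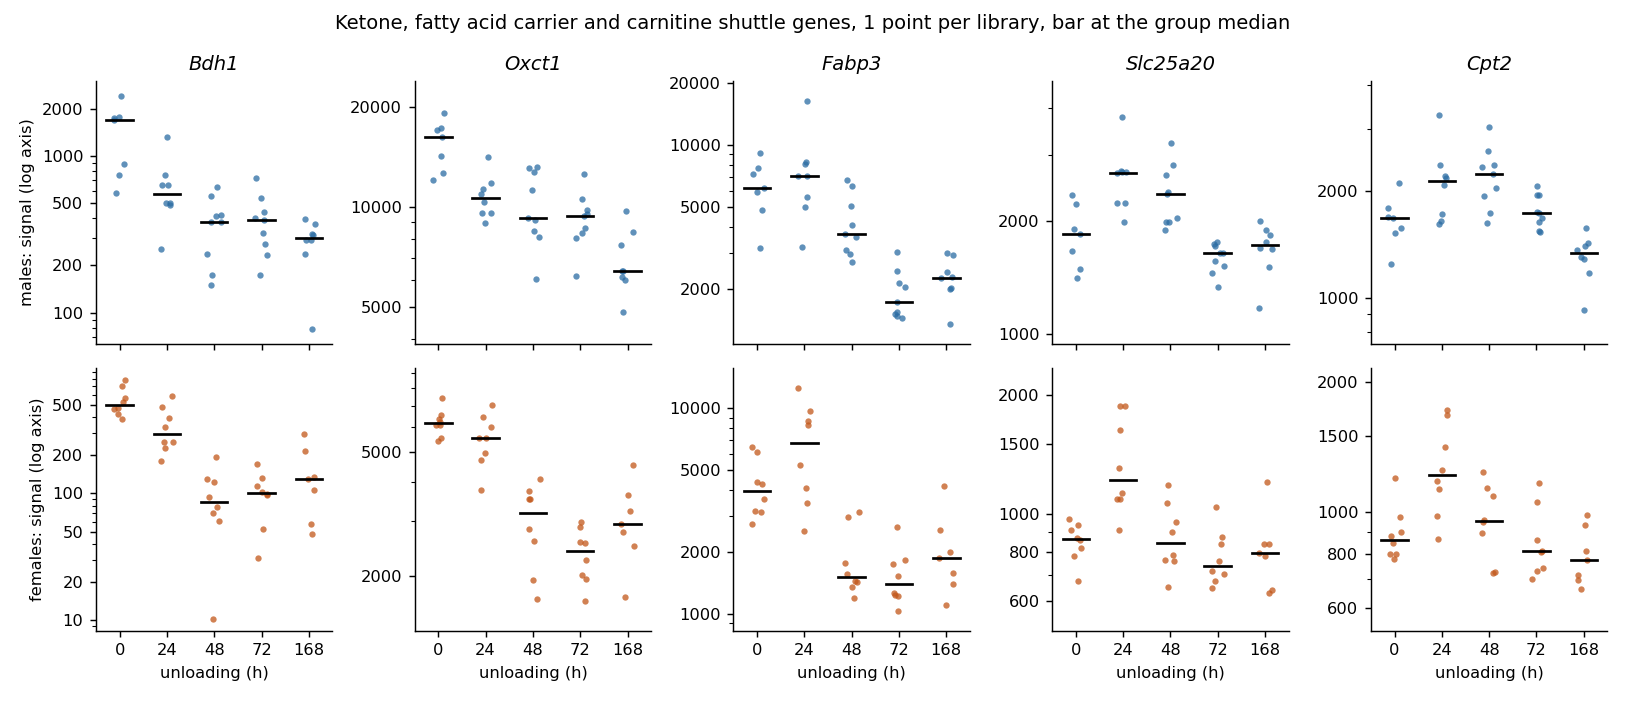
Signal of Bdh1, Oxct1, Fabp3, Slc25a20 and Cpt2 in each library (points, log axis, a scale of its own in each panel) by hours of unloading, males above and females below, with a bar at the group median. Bdh1 and Oxct1 step down from 0 h on in males and after 24 h in females, Fabp3 drops after 24 to 48 h, and Slc25a20 and Cpt2 are highest at 24 or 48 h.

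Among the genes of fatty acid entry, Fabp3 had the largest fall. Fabp3 (ENSMUSG00000028773, chromosome 4, 130202388 to 130209257, forward strand) encodes the small protein that carries fatty acids through the cytosol of heart and oxidative muscle. In males the lowest, median and highest signals were 3167, 6223 and 9114 at 0 h, 3199, 7068 and 16334 at 24 h and 2709.6, 3702 and 6760.2 at 48 h. They dropped to 1450.0, 1741 and 3033 at 72 h and were 1358, 2279.6 and 2991 at 168 h, so that at both later times every library lay below every control. Female signals were 2731, 3941 and 6503 at 0 h, 2529, 6790.1 and 12562 at 24 h and 1189.7, 1504 and 3129 at 48 h. They were 1031, 1392 and 2653 at 72 h, the female group that did not overlap the controls, and 1098, 1874 and 4188 at 168 h.

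Male Fabp3 was 0.19 ± 0.24 (log2 change ± SE) at 24 h and -0.57 ± 0.24 at 48 h, neither called, and fell with a change of -1.68 (SE 0.24, adjusted p = 1.2e-05) at 72 h and -1.44 (SE 0.24, adjusted p = 6.5e-05) at 168 h. Between 48 and 72 h the male change was -1.11 (SE 0.22, adjusted p = 0.0028). In females the change was 0.56 ± 0.28 at 24 h, not called, then -1.22 (SE 0.28, adjusted p = 7.7e-04) at 48 h, -1.44 (SE 0.28, adjusted p = 1.8e-04) at 72 h and -1.08 (SE 0.29, adjusted p = 0.013) at 168 h. The processed pseudogene Fabp3-ps1 on chromosome 10 is identical to Fabp3 in 399 of its 402 bases (99.3%), so reads may have been split between them. Its own changes were -1.89 (SE 0.31, adjusted p = 8.7e-05) and -1.41 (SE 0.32, adjusted p = 0.0014) in males at 72 and 168 h, and -1.17 (SE 0.29, adjusted p = 0.0016) in females at 48 h.

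The other entry genes moved less. Cd36, the fatty acid translocase of the cell surface, rose in females at 24 h by 0.66 (SE 0.20, adjusted p = 0.016), a call that quantile normalization removed, and its 7 other changes ranged from -0.22 to 0.31 with none called. Acsl1, which ties fatty acids to coenzyme A, fell in males with a change of -0.45 (SE 0.10, adjusted p = 0.0025) at 72 h and -0.38 (SE 0.10, adjusted p = 0.0055) at 168 h, and in females it was between -0.24 and 0.08. Cpt1b, the muscle form of the outer membrane acyltransferase and the step inhibited by malonyl-CoA, fell in males at 72 h with a change of -0.31 (SE 0.08, adjusted p = 0.014), which became an adjusted p of 0.17 with the 2 libraries at 72 h that are numbered with the controls. In females Cpt1b fell at 48 h with a change of -0.35 (SE 0.13, adjusted p = 0.032), a call lost without any 1 of replicate 7 at 0 h or replicates 6 and 7 at 48 h (adjusted p up to 0.083), and with equal library totals.

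Slc25a20 and Cpt2, the 2 genes for the inner membrane part of the carnitine shuttle, were the ones that rose at 24 h in both sexes. Slc25a20 (ENSMUSG00000032602, chromosome 9, 108539287 to 108561841, forward strand), described in full because of its values, encodes the carrier that swaps acylcarnitine for free carnitine. In males its lowest, median and highest signals were 1404, 1841 and 2350.0 at 0 h, 1984, 2686 and 3773 at 24 h and 1892, 2351 and 3216 at 48 h. They returned to 1334, 1638 and 1758 at 72 h and 1174, 1725 and 1993 at 168 h, within the range of the controls in most libraries. Female signals were 673, 862 and 971 at 0 h and 909.9, 1216 and 1876 at 24 h, where the ranges still overlapped. They were 652, 842 and 1183 at 48 h, 646, 736 and 1041 at 72 h and 629.8, 796 and 1203 at 168 h. The male change was 0.51 (SE 0.12, adjusted p = 0.0013) at 24 h and 0.37 (SE 0.12, adjusted p = 0.015) at 48 h, and from 48 to 72 h it was -0.55 (SE 0.11, adjusted p = 0.0022). The female change was 0.64 (SE 0.14, adjusted p = 9.6e-04) at 24 h, with 8 of 8 libraries above the control mean, and 0.03 at 48 h.

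Cpt2 (ENSMUSG00000028607, chromosome 4, 107761178 to 107780808, reverse strand) encodes the inner membrane acyltransferase that hands the fatty acid back to coenzyme A. Male signals had a lowest, median and highest of 1244, 1679 and 2109 at 0 h, 1622, 2137 and 3279.5 at 24 h and 1625, 2245 and 3035 at 48 h. They were 1535, 1734 and 2072 at 72 h and 927, 1337 and 1581 at 168 h, each group overlapping the controls. Female signals were 778, 862 and 1198 at 0 h, 866, 1215 and 1723 at 24 h and 722, 953 and 1237 at 48 h. They were 702, 810.5 and 1169.5 at 72 h and 664, 773 and 985 at 168 h, again with overlap at every time. Cpt2 rose in males by 0.35 (SE 0.13, adjusted p = 0.036) at 24 h and 0.41 (SE 0.12, adjusted p = 0.0098) at 48 h, and in females by 0.49 (SE 0.13, adjusted p = 0.0063) at 24 h. It fell in males at 168 h with a change of -0.34 (SE 0.13, adjusted p = 0.046). The male call at 24 h was lost without any 1 of replicates 1, 2 and 7 at 0 h or replicates 4, 5, 6 and 7 at 24 h (adjusted p up to 0.11), and under equal totals, quantile normalization and array weights. The male call at 168 h was lost without any 1 of replicates 1, 2, 3, 4, 5 and 6 at 0 h or replicates 1, 5, 6, 7 and 8 at 168 h (adjusted p up to 0.12), and with a plain variance prior.

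Promoters of some members are shown, chosen after their values were seen. Of these, 2 genes that rose at 24 h in both sexes share a short motif near their starts. They are RefSeq windows of 300 bases, from 250 before to 50 after the gene start, on build GRCm38.p6, and 30 of the 35 genes had a window, 37 windows in all. The motif CCGGAAGT, a site of the ETS family that includes GABPA, was searched on either strand. It was found in 3 of the 37 windows, those of Slc25a20, Cpt2 and Dlst, and in 3.89% of 32851 windows of all genes. Slc25a20 and Cpt2 rose at 24 h, and Dlst fell from 48 h on. Whether the motif has a part in these changes was not tested. Capitals mark the motif or its reverse complement, and the windows are chr9:108661886-108662185, forward strand for Slc25a20, chr4:107923540-107923839, reverse strand for Cpt2 and chr12:85110583-85110882, forward strand for Dlst.
Slc25a20: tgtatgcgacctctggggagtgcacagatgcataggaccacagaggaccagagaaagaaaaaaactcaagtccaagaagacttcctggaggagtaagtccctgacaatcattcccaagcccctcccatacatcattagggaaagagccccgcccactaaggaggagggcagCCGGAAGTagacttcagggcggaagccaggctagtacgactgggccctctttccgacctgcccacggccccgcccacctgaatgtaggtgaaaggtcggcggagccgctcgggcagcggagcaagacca
Cpt2: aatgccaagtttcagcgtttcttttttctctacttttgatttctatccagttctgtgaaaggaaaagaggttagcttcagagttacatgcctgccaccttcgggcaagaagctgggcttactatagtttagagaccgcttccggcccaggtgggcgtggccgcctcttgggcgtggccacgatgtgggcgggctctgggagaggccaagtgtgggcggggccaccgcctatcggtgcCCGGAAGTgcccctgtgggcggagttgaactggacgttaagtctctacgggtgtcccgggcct
Dlst: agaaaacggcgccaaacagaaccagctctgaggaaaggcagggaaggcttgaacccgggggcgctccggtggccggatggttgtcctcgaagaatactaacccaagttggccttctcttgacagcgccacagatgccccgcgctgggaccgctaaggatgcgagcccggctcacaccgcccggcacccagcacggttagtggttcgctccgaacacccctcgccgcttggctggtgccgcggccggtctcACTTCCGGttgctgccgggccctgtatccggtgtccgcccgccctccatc

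Other motifs were searched on both strands in the same windows. The estrogen-related receptor element TNAAGGTCA was in 0 of the 37 windows and in 1.28% of all. The element bound by PPAR with RXR, 2 copies of AGGTCA 1 base apart, was in 0 and in 0.0396% of all. The core AGGTCA, which both contain, was in 7 of 37 (Acadm, Acadvl, Cd36, Fh1, Idh3g, Ogdh and Sucla2) and in 16.3% of all. The palindromic NRF1 site was in 1, that of Etfdh, and in 0.971% of all. Hadha and Hadhb start next to each other on opposite strands of chromosome 5, so their windows share 228 bases, and the 2 genes fell together in males at 168 h. The window of Hadhb (chr5:30155003-30155302, forward strand) and that of Oxct1 (chr15:4026178-4026477, forward strand), the other gene called lower in 7 comparisons beside Bdh1, held none of these motifs.
Hadhb: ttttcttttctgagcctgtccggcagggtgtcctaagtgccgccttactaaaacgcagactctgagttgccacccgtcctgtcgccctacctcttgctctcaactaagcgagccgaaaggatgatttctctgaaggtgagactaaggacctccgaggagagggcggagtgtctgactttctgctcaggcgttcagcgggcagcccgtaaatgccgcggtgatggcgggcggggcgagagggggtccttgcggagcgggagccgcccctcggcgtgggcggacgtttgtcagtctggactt
Oxct1: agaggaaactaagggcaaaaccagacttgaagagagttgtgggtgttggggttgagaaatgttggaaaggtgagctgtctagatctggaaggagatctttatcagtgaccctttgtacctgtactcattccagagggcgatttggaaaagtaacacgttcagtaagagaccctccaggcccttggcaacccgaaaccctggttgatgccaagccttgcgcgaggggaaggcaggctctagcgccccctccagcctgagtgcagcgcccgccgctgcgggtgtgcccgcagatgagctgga

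The 10 genes of the beta-oxidation steps divided by time. Acadl and Acadvl encode the long and very long chain acyl-CoA dehydrogenases, which take the first step on long chains. Acadl rose in males at 48 h by 0.49 (SE 0.15, adjusted p = 0.0085) and in females by 0.58 (SE 0.16, adjusted p = 0.0064) at 24 h and 0.40 (SE 0.16, adjusted p = 0.042) at 48 h, the last being lost without any 1 of replicates 2, 3, 4, 5 and 6 at 0 h or replicates 3, 5, 7 and 8 at 48 h (adjusted p up to 0.087) and with quantile normalization. Acadvl rose in females at 24 h by 0.46 (SE 0.12, adjusted p = 0.006), a call that quantile normalization removed, and in males it was 0.30 at 48 h and -0.32 at 168 h without a call. The medium and short chain dehydrogenases Acadm and Acads fell in males at 168 h, with a change of -0.44 (SE 0.12, adjusted p = 0.0091) and -0.37 (SE 0.14, adjusted p = 0.044). The call of Acads was lost without any 1 of replicates 1, 2, 3, 4, 5 and 6 at 0 h or replicates 1, 3, 5, 7 and 8 at 168 h (adjusted p up to 0.11).

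Hadha and Hadhb encode the 2 subunits of the mitochondrial trifunctional protein, which hydrates, oxidises and cleaves long chains. Both fell in males at 168 h, with a change of -0.38 (SE 0.11, adjusted p = 0.012) and -0.58 (SE 0.13, adjusted p = 0.0016), after 0.20 and 0.15 at 48 h. In females at 24 h Hadhb rose by 0.38 (SE 0.14, adjusted p = 0.039) and Hadha was 0.34 (SE 0.13, adjusted p = 0.055) without a call. The female rise of Hadhb was lost without any 1 of replicates 2, 3, 4, 5, 6 and 8 at 0 h or replicates 1, 2, 4 and 7 at 24 h (adjusted p up to 0.092), without the libraries that stood apart, and under either other scaling. The processed pseudogene Hadhb-ps was -0.01 (SE 0.17, adjusted p = 0.97) in females at 24 h and -0.56 (SE 0.12, adjusted p = 6.9e-04) in males at 168 h. How far its sequence matches Hadhb was not measured, and reads may have been split between them. Hadh, the dehydrogenase for shorter chains, fell in males with a change of -0.50 (SE 0.10, adjusted p = 2.7e-04) at 168 h and in females with a change of -0.33 (SE 0.09, adjusted p = 0.0054) at 72 h and -0.42 (SE 0.09, adjusted p = 0.0023) at 168 h, the call at 72 h being lost with equal library totals. At 168 h every female library lay below every female control for Hadh.

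Acaa2 (ENSMUSG00000036880, chromosome 18, 74912268 to 74939280, forward strand), the thiolase that cleaves off acetyl-CoA at the end of a round, was called lower in 4 comparisons, more than the other 9 genes of these steps. In males the lowest, median and highest signals were 2679, 3809 and 5433 at 0 h, 2718, 4114 and 6792 at 24 h and 2810.3, 4024 and 4909 at 48 h. They were 2084, 2622 and 3795 at 72 h and 1403, 2331 and 3188 at 168 h, each overlapping the controls. Female signals were 1588, 2016 and 3081 at 0 h, 1618, 2613 and 4540.3 at 24 h and 734, 1517 and 2319 at 48 h. They were 939, 1092 and 1433 at 72 h, wholly below the controls, and 1092, 1457 and 2196 at 168 h. Acaa2 was 0.04 and 0.04 in males at 24 and 48 h, then fell with a change of -0.50 (SE 0.17, adjusted p = 0.041) at 72 h and -0.74 (SE 0.17, adjusted p = 0.0017) at 168 h. In females it fell with a change of -0.64 (SE 0.21, adjusted p = 0.013) at 48 h and -0.90 (SE 0.21, adjusted p = 9.6e-04) at 72 h, and was -0.53 (SE 0.21, adjusted p = 0.11) at 168 h. The male call at 72 h was lost without any 1 of replicates 1, 3, 4, 5 and 6 at 0 h or replicates 1, 2, 4, 5, 6, 7 and 9 at 72 h (adjusted p up to 0.12), with equal library totals, and with either subset of the 72 h libraries.

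The 2 auxiliary enzymes for unsaturated chains, Eci1 and Decr1, fell late in both sexes. Eci1 fell in males at 168 h with a change of -0.38 (SE 0.12, adjusted p = 0.015) and in females at 72 h with a change of -0.42 (SE 0.15, adjusted p = 0.032). Decr1 fell in males at 168 h with a change of -0.39 (SE 0.11, adjusted p = 0.01) and in females at 72 h with a change of -0.49 (SE 0.15, adjusted p = 0.013), with no overlap with the controls. The female call of Eci1 was lost without any 1 of replicates 1 and 7 at 0 h or replicates 1, 3 and 7 at 72 h (adjusted p up to 0.082) and with equal library totals. Of the electron transfer genes, Etfa and Etfdh rose early in females and fell late in males. Etfa, a subunit of the electron transfer flavoprotein, was 0.33 (SE 0.12, adjusted p = 0.044) in females at 24 h and -0.37 (SE 0.12, adjusted p = 0.016) in males at 168 h. Etfdh, the oxidoreductase that passes these electrons to ubiquinone, was 0.46 (SE 0.13, adjusted p = 0.0076) and -0.31 (SE 0.11, adjusted p = 0.034) in the same comparisons. The female call of Etfa was lost without any 1 of replicates 2, 3, 4, 5, 6, 7 and 8 at 0 h or replicates 2, 3, 4, 7 and 8 at 24 h (adjusted p up to 0.11), without the libraries that stood apart and under either other scaling, and the male call of Etfdh without any 1 of replicates 1, 4, 5 and 6 at 0 h or replicates 5 and 7 at 168 h (adjusted p up to 0.099). Etfb, the other flavoprotein subunit, was 0.35 ± 0.18 and -0.22 ± 0.12 without a call.

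In the TCA cycle the falls were spread unevenly over the steps. Over the 4 times, 0, 3, 3 and 6 of 13 genes fell in males and 0, 6, 8 and 3 in females, and 1 rose, Idh3g in females at 24 h. Of all genes 14.4%, 14.7%, 5.22% and 11.5% were lower in males at these times and 10.9%, 17.1%, 13.2% and 4.38% in females. In males at 24 h, 0 of the 13 had an unadjusted p under 0.05 in limma. Dlst and Mdh1 fell at 48, 72 and 168 h in both sexes, Idh3a at 48 and 72 h in both sexes, and Idh2 at 168 h in both.

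Cs (ENSMUSG00000005683, chromosome 10, 128173603 to 128198349, forward strand) encodes citrate synthase, whose activity is widely used as a measure of mitochondrial content. Male signals had a lowest, median and highest of 25628, 27059 and 30976 at 0 h, 25496, 26938 and 31462 at 24 h and 22469.5, 25369 and 28429.7 at 48 h. They were 20809.7, 24358 and 26264 at 72 h and 19600.5, 22048 and 26221 at 168 h, with every group reaching into the range of the controls. Female signals were 10353, 11267 and 11955 at 0 h, 9492, 11250.2 and 12959 at 24 h and 6711, 9349 and 11159.9 at 48 h. They were 6202, 9062 and 10471 at 72 h and 8087, 9187 and 10739.8 at 168 h. Male Cs was 0.00 ± 0.07 at 24 h and fell only at 168 h among the male times tested, with a change of -0.31 (SE 0.07, adjusted p = 8.6e-04). Female Cs fell with a change of -0.32 (SE 0.10, adjusted p = 0.0078) at 48 h and -0.36 (SE 0.10, adjusted p = 0.0042) at 72 h, and was -0.28 (SE 0.10, adjusted p = 0.064) at 168 h. Csl, a gene on the same chromosome that shares 90.5% of 1617 aligned bases with Cs, was -0.37 ± 0.09 in males at 168 h and -0.42 ± 0.15 in females at 72 h, both called.

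Idh2 and Idh3a encode isocitrate dehydrogenases, the first using NADP and the second being the catalytic subunit of the NAD form that the cycle runs on. Idh2 (ENSMUSG00000030541, chromosome 7, 79744594 to 79765141, reverse strand) had male signals of 4769.9, 8693 and 11804 at 0 h, 3841, 5717 and 10039 at 24 h and 3589, 7384 and 9615 at 48 h. They were 3615, 4856 and 7782 at 72 h and 1941, 3816 and 5187 at 168 h, and the controls themselves spread with a coefficient of variation of 32.0%. Female signals were 3985, 4665 and 7584 at 0 h, 2756, 5068 and 9062 at 24 h and 1231, 3101 and 4373 at 48 h. They were 1329.9, 2536 and 3493 at 72 h and 1152, 2692 and 3925 at 168 h, both groups wholly below the controls. Idh2 fell in males at 168 h with a change of -1.16 (SE 0.22, adjusted p = 2.9e-04), a ratio of 0.449, after -0.61 (SE 0.22, adjusted p = 0.064) at 72 h. In females it was 0.00 at 24 h and then fell with a change of -0.90 (SE 0.26, adjusted p = 0.0056), -1.13 (SE 0.26, adjusted p = 0.001) and -1.03 (SE 0.27, adjusted p = 0.0087).

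Idh3a (ENSMUSG00000032279, chromosome 9, 54493618 to 54511946, forward strand) was lower at 48 and 72 h in females and higher again at 168 h. In males the lowest, median and highest signals were 19877, 22848 and 25924 at 0 h, 19179, 21139.6 and 22678 at 24 h and 15046, 19132 and 21310.3 at 48 h. They were 16393, 19685 and 21255 at 72 h and 16386, 19384 and 23752 at 168 h. Female signals were 8598, 9742 and 10338 at 0 h, 7214, 8349 and 10024 at 24 h and 4378, 6054 and 7652 at 48 h. They were 4357, 6555 and 8323 at 72 h and 7813, 8633 and 10823 at 168 h, so the groups at 48 and 72 h lay below all controls and the last group overlapped them again. Female Idh3a fell with a change of -0.67 (SE 0.11, adjusted p = 7.5e-06) and -0.61 (SE 0.11, adjusted p = 4.9e-05), was -0.10 (SE 0.11, adjusted p = 0.64) at 168 h, and rose from 72 to 168 h by 0.50 (SE 0.11, adjusted p = 0.0071). That rise was the only call among the 35 genes between those times, where 1.34% of all genes were called higher and 2.22% lower. Male Idh3a fell with a change of -0.29 (SE 0.07, adjusted p = 0.0025) and -0.22 (SE 0.07, adjusted p = 0.042) and was -0.19 (SE 0.07, adjusted p = 0.067) at 168 h. The male call at 72 h was lost without any 1 of replicates 1, 3, 4, 6 and 7 at 0 h or replicates 1, 3, 5, 6 and 8 at 72 h (adjusted p up to 0.12), with quantile normalization, and with either subset of the 72 h libraries.

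Dlst (ENSMUSG00000004789, chromosome 12, 85157607 to 85181620, forward strand), the E2 subunit of 2-oxoglutarate dehydrogenase, had small falls with little spread. Male signals had a lowest, median and highest of 8006, 8943 and 10227 at 0 h, 7637, 8448 and 10238 at 24 h and 6375, 7488 and 8376 at 48 h. They were 6051, 7382 and 7775 at 72 h and 5513, 6288 and 7792 at 168 h, both wholly below the controls. Female signals were 3645, 3879.8 and 4447 at 0 h, 3035, 3897 and 4679 at 24 h and 2715, 2978 and 3188 at 48 h. They were 2491, 2891 and 3358 at 72 h and 2733, 2952 and 4129.8 at 168 h, and the groups at 48 and 72 h did not reach the controls. Dlst fell in males with a change of -0.27 ± 0.07, -0.31 ± 0.07 and -0.46 (SE 0.07, adjusted p = 2.0e-05) at 48, 72 and 168 h. It fell in females with a change of -0.40 (SE 0.08, adjusted p = 1.7e-04), -0.43 ± 0.08 and -0.32 (SE 0.08, adjusted p = 0.011). Its partner subunits were not called at any time: Ogdh, the E1 subunit, ranged from -0.11 to -0.01, and Dld, the E3 subunit shared with pyruvate dehydrogenase, from -0.36 to 0.18.

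Mdh1 (ENSMUSG00000020321, chromosome 11, 21506692 to 21522368, reverse strand), the cytosolic malate dehydrogenase of the malate-aspartate shuttle, was called lower as often as Dlst. In males the lowest, median and highest signals were 11771, 15707 and 19675 at 0 h, 11323, 14244 and 19954 at 24 h and 10055, 12136 and 14618 at 48 h. They were 8331, 10448 and 13849 at 72 h and 7126, 9825 and 13020.2 at 168 h, each overlapping the controls. Female signals were 8297, 9737 and 14752 at 0 h, 7047, 10324 and 15689 at 24 h and 5023, 6546 and 8271 at 48 h. They were 5065, 5360.5 and 7495 at 72 h and 5587, 6966 and 9347 at 168 h, with no overlap at 48 and 72 h. Mdh1 fell in males with a change of -0.33 (SE 0.12, adjusted p = 0.026), -0.57 (SE 0.12, adjusted p = 0.0011) and -0.64 (SE 0.12, adjusted p = 1.8e-04), and in females with a change of -0.66 (SE 0.14, adjusted p = 2.8e-04), -0.85 (SE 0.14, adjusted p = 1.5e-05) and -0.51 (SE 0.14, adjusted p = 0.016). The male call at 48 h was lost without any 1 of replicates 1, 4 and 6 at 0 h or replicate 6 at 48 h (adjusted p up to 0.08). The mitochondrial form Mdh2 fell in females with a change of -0.42 ± 0.13 at 48 h and -0.37 ± 0.13 at 72 h, the second being lost without any 1 of replicate 7 at 0 h or replicates 3 and 7 at 72 h (adjusted p up to 0.08) and with equal library totals, and in males it was -0.29 (SE 0.11, adjusted p = 0.053) at 168 h.

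The remaining genes of the cycle were called at most in 2 comparisons. Suclg1 and Sucla2, subunits of succinyl-CoA ligase, fell in males at 168 h with a change of -0.23 (SE 0.08, adjusted p = 0.035) and -0.28 (SE 0.08, adjusted p = 0.0088), and Suclg1 fell in females at 72 h with a change of -0.38 (SE 0.12, adjusted p = 0.016). The male call of Suclg1 was lost without any 1 of replicates 1, 3, 4 and 6 at 0 h or replicates 1, 3, 5, 7 and 8 at 168 h (adjusted p up to 0.079). Sucla2 varied widely in female controls, with a coefficient of variation of 29.8%, and its female change at 72 h was -0.35 ± 0.23. Fh1, fumarate hydratase, fell in females at 72 h with a change of -0.28 (SE 0.10, adjusted p = 0.034), a call lost without any 1 of replicates 1, 4, 5 and 7 at 0 h or replicates 1, 6 and 7 at 72 h (adjusted p up to 0.094) and with equal library totals. Idh3g, a regulatory subunit of the NAD-dependent isocitrate dehydrogenase, rose in females at 24 h by 0.39 (SE 0.11, adjusted p = 0.01), which quantile normalization removed. Idh3b, the other such subunit, ranged from -0.21 to 0.10 with no call.

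**Figure D3:**
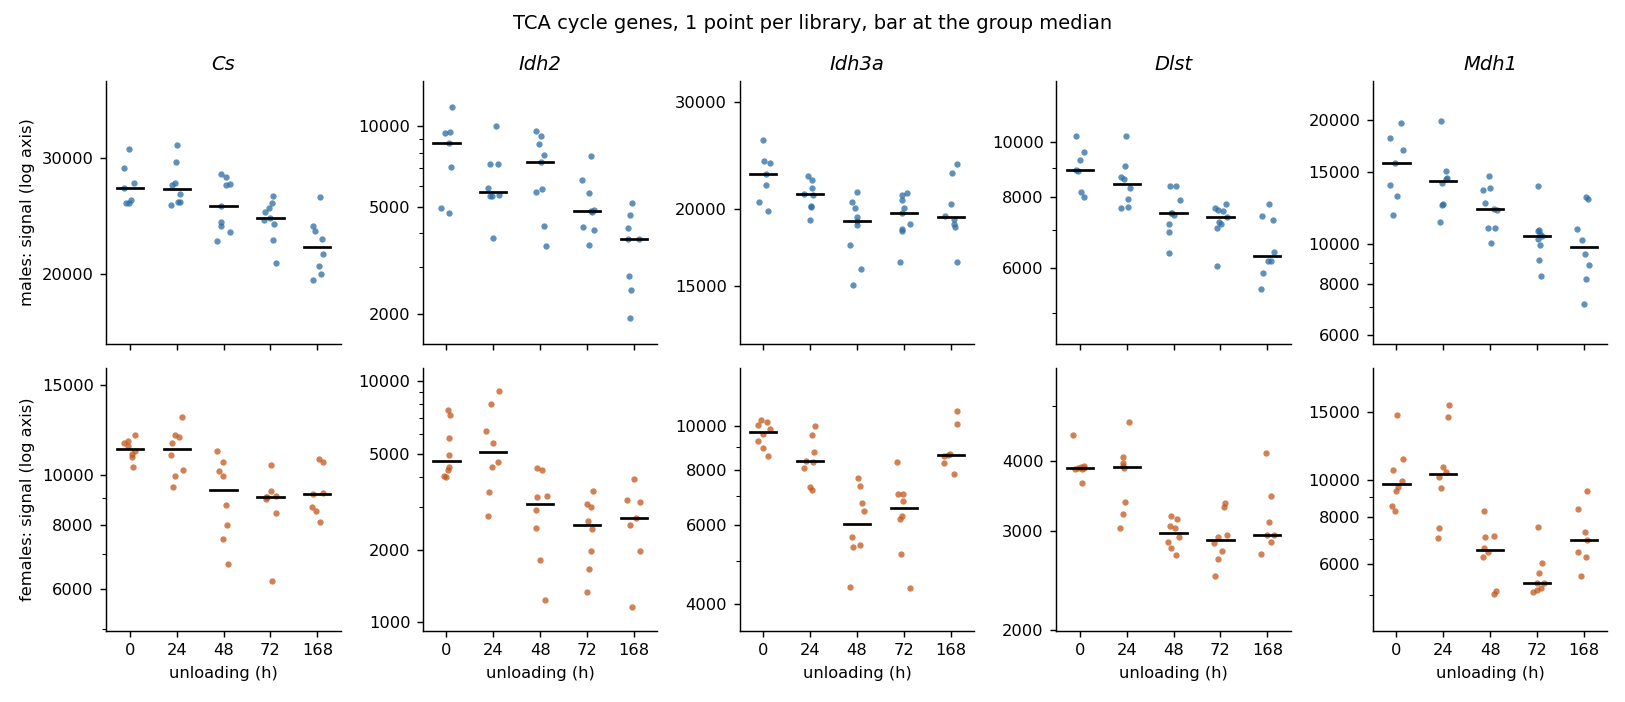
Signal of Cs, Idh2, Idh3a, Dlst and Mdh1 in each library (points, log axis, a scale of its own in each panel) by hours of unloading, males above and females below, with a bar at the group median. The female groups step down at 48 h, the male medians of Cs, Idh2, Dlst and Mdh1 are lowest at 168 h, and female Idh3a returns at 168 h to a range that overlaps the controls.

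Set side by side, the median change of the fatty acid and ketone genes lay above that of the TCA cycle genes at 24 and 48 h in both sexes and at 72 h in females, and below it in males at 72 and 168 h and in females at 168 h. The median change of the 22 fatty acid and ketone genes in males was 0.11, 0.09, -0.24 and -0.38 at the 4 times, and that of the 13 TCA cycle genes 0.03, -0.03, -0.09 and -0.23. In females it was 0.33, -0.19, -0.27 and -0.23 against 0.03, -0.23, -0.36 and -0.18. Over all genes tested the medians lay from 0.00 to 0.01 in males and from 0.03 to 0.06 in females. Of the 22, 2, 3, 0 and 0 rose in males and 2, 2, 6 and 15 fell, and in females 8, 1, 0 and 0 rose and 0, 5, 7 and 4 fell. The higher share of the 22 in males at 24 and 48 h lay below the 14.8% and 16.3% of all genes called higher.

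Within a library, the median log2 difference from the control mean was higher for the fatty acid and ketone genes than for the TCA cycle genes in 6 of 8, 7 of 9, 0 of 9 and 2 of 8 male libraries at 24, 48, 72 and 168 h, and in 3 of 7 at 0 h. The 9 male libraries at 72 h were lower by 0.02 to 0.27. In females it was higher in 8 of 8, 5 of 8, 5 of 8 and 3 of 7 at the same times, and in 3 of 8 at 0 h. These are descriptions over chosen genes and carry no test, and no test compared the 2 groups of genes.

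**Figure D4:**
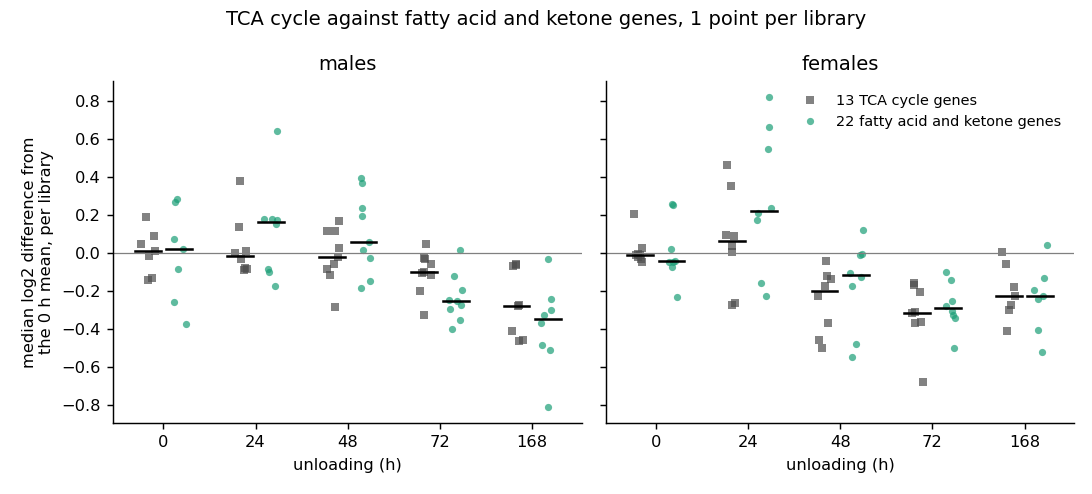
Median log2 difference from the 0 h mean over the 13 TCA cycle genes (squares) and over the 22 fatty acid and ketone genes (circles) in each library, by hours of unloading, males left and females right, with a bar at the group median. The bar of the circles lies above that of the squares at 24 and 48 h in both sexes and below it in males at 72 and 168 h, and at 168 h both kinds of point lie below 0 in every male library.

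Between neighbouring times, male members were called at 1 step, from 48 to 72 h. From 24 to 48 h 0 of 35 were called in limma, with 5 at an unadjusted p under 0.05, where 0.0156% of all genes were called. From 48 to 72 h 11 fell, all of fatty acid entry, beta-oxidation or electron transfer, where 5.36% of all genes were called lower and 3.45% higher. The 11 were Cd36, Fabp3, Acsl1, Slc25a20, Acadl, Hadha, Hadhb, Acaa2, Decr1, Etfa and Etfdh. Etfdh changed by -0.45 (SE 0.10, adjusted p = 0.004), Acadl by -0.53 (SE 0.14, adjusted p = 0.012) and Acsl1 by -0.35 (SE 0.09, adjusted p = 0.014). 0 of the 13 TCA cycle genes were called between these times, with 3 at an unadjusted p under 0.05. With the 2 libraries at 72 h numbered with the controls 0 were called and with the other 7 libraries 7, and 6 were called without replicate 2 at 48 h and 6 without replicate 6 at 72 h. Without replicate 5 at 48 h, the one numbered with 72 h, 12 were called. The other male libraries at 48 h are numbered apart from those at 72 h, so at this step time and numbering cannot be told apart. From 72 to 168 h 0 were called, with 15 at an unadjusted p under 0.05, all 15 lower, where 0.296% of all genes were called. Without replicate 5 at 24 h, which is in neither group but in the same fit, 1 was called.

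Female genes fell between 24 and 48 h. 16 of 35 were called lower there, 6 of the TCA cycle and 10 of fatty acid and ketone oxidation, where 3.54% of all genes were called lower and 3.12% higher. Fabp3 changed by -1.78 (SE 0.28, adjusted p = 5.7e-04), Mdh1 by -0.69 (SE 0.14, adjusted p = 0.0035) and Oxct1 by -0.92 (SE 0.17, adjusted p = 0.0016). The count was 10, 8 and 9 without replicates 1, 2 and 4 at 24 h in turn, and 10, 8 and 8 without replicates 4, 6 and 7 at 48 h in turn. Depth and numbering also differ between these groups. After the values were seen, 72 h was compared with 24 h, whose libraries are numbered in 1 run, though those at 72 h are shallower (5.57 to 9.63 M reads against 6.42 to 11.8 M). The 24 h group it starts from had 9 members called higher than at 0 h, a count that depended on the scaling. From 24 to 72 h, 28 of 35 fell and 0 rose, 10 of 13 in the TCA cycle and 18 of 22 in fatty acid and ketone oxidation, where 5.85% of all genes were called lower and 6.41% higher. Mdh1 changed by -0.88 (SE 0.14, adjusted p = 1.4e-04), Oxct1 by -1.23 (SE 0.17, adjusted p = 1.6e-05) and Etfdh by -0.65 (SE 0.13, adjusted p = 9.5e-04). In the same comparison all 4 red cell markers fell, with ratios from 0.34 to 0.427, and of 7 macrophage markers C1qa fell, with a ratio of 0.672. Of 12 markers of slow and intermediate fibres 4 fell, and of 11 fast fibre markers 2. The part of these markers in the falls was not tested. Equal library totals moved the median of all genes by 0.15 in this comparison and by 0.10 from 24 to 48 h, and left 17 members called from 24 to 72 h and 9 from 24 to 48 h. From 48 to 72 h 0 were called, with 1 at an unadjusted p under 0.05, where 0.596% of all genes were called.

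Males at 168 h and females at 48 h were numbered in 1 run with their controls, so the 21 genes lower in the first and the 11 lower in the second come from groups that share their numbering with 0 h. Bdh1, Oxct1, Fabp3, Acaa2, Cs, Idh2, Dlst and Mdh1 fell in both of these comparisons.

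At each time some members were called in the same direction in both sexes. Of all genes 14.7%, 5.22% and 11.5% were lower in males at 48, 72 and 168 h and 17.1%, 13.2% and 4.38% in females. How many of all genes were called lower in both sexes was not counted. At 48 h, 5 genes were called lower in both, all 5 of those called lower in males and 5 of the 11 in females. At 72 h, 7 were called lower in both (Idh3a, Dlst, Mdh1, Fabp3, Acaa2, Bdh1 and Oxct1), of 9 in males and 15 in females. At 168 h, 7 were (Idh2, Dlst, Mdh1, Fabp3, Hadh, Bdh1 and Oxct1), of 21 in males and 7 in females. The difference between the sexes, taken as the female change minus the male change over the 10964 genes found in both tables, was called for 0 of 35 at each time in limma. At 24, 48, 72 and 168 h, 0, 5, 4 and 0 had an unadjusted p under 0.05, where 0.0547%, 0.301%, 2.44% and 0.0182% of all genes were called. The smallest p was that of Idh3a at 72 h, -0.39 (SE 0.13, adjusted p = 0.086), and Oxct1 at 72 h was -0.67 (SE 0.22, adjusted p = 0.089). At 72 h 1 gene was called without female replicate 2 at 72 h.

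Other genes of the cycle and of the entry of pyruvate, a list of 11, were called lower from 48 h on in males and at 48 and 72 h in females. In males 0, 3, 2 and 9 of 11 fell at the 4 times, and in females 0, 4, 5 and 0. Of all genes 14.4%, 14.7%, 5.22% and 11.5% fell in males at the 4 times and 10.9%, 17.1%, 13.2% and 4.38% in females. Sdhd, a membrane anchor of succinate dehydrogenase, fell with a change of -0.34 (SE 0.10, adjusted p = 0.0088) in males and -0.72 (SE 0.12, adjusted p = 1.2e-05) in females at 48 h. Dlat, the E2 subunit of pyruvate dehydrogenase, fell with a change of -0.42 (SE 0.08, adjusted p = 1.3e-04) in males at 168 h and -0.67 (SE 0.12, adjusted p = 7.0e-05) in females at 72 h. Idh1, the cytosolic isocitrate dehydrogenase, went the other way, with 0.49 (SE 0.10, adjusted p = 3.8e-04) in males and 0.93 (SE 0.11, adjusted p = 1.4e-07) in females at 24 h.

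Of 30 other genes of lipid use, 29 were also in the female table. In males 11, 12, 0 and 2 rose and 1, 2, 3 and 8 fell at the 4 times, and in females 10, 8, 5 and 4 rose and 0, 5, 4 and 1 fell. Of all genes 14.8%, 16.3%, 5.61% and 11.0% rose and 14.4%, 14.7%, 5.22% and 11.5% fell in males at these times. In females 13.8%, 21.0%, 16.8% and 6.3% of all genes rose and 10.9%, 17.1%, 13.2% and 4.38% fell. Pnpla2, the lipase that starts the breakdown of stored triglyceride, rose at 24 h by 0.90 (SE 0.14, adjusted p = 1.2e-05) in males and 1.52 (SE 0.19, adjusted p = 5.7e-07) in females. Eci2, an isomerase of mitochondria and peroxisomes, rose by 0.78 (SE 0.11, adjusted p = 8.3e-07) and 0.88 (SE 0.13, adjusted p = 8.6e-06), where its relative Eci1 was 0.01 and 0.04. Acacb, which makes the malonyl-CoA that inhibits CPT1B, rose by 0.83 (SE 0.12, adjusted p = 1.4e-06) in females at 48 h. Lpl, the lipase that frees fatty acids from lipoproteins in the capillary, fell with a change of -0.73 (SE 0.20, adjusted p = 0.012) at 72 h and -0.88 (SE 0.20, adjusted p = 0.0015) at 168 h in males.

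Among 19 regulators of these pathways, more were called lower than higher in every comparison with 0 h but that of females at 168 h. In males 1, 1, 0 and 1 of 19 rose and 8, 9, 4 and 7 fell, and in females 3, 5, 3 and 2 rose and 6, 8, 6 and 0 fell. Of all genes 14.8%, 16.3%, 5.61% and 11.0% rose and 14.4%, 14.7%, 5.22% and 11.5% fell in males. For females these shares were 13.8%, 21.0%, 16.8% and 6.3% higher and 10.9%, 17.1%, 13.2% and 4.38% lower. The part of the regulators in the changes of the members was not tested. Ppara, a nuclear receptor for fatty acids that drives their oxidation, fell at 24 h with a change of -1.67 (SE 0.21, adjusted p = 3.1e-07) in males and with a change of -1.77 ± 0.38 in females, the latter named after its values were seen. Perm1, a muscle factor downstream of PGC-1, fell with a change of -0.92 (SE 0.14, adjusted p = 7.0e-06) and -1.02 (SE 0.17, adjusted p = 4.8e-05), and Ppargc1b, the coactivator PGC-1 beta, with a change of -1.29 (SE 0.21, adjusted p = 1.7e-05) and -1.45 (SE 0.26, adjusted p = 9.9e-05). Lpin1, which makes diacylglycerol and also acts with PGC-1 alpha, rose in females by 1.34 (SE 0.14, adjusted p = 3.2e-09) at 48 h.

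**Figure D5:**
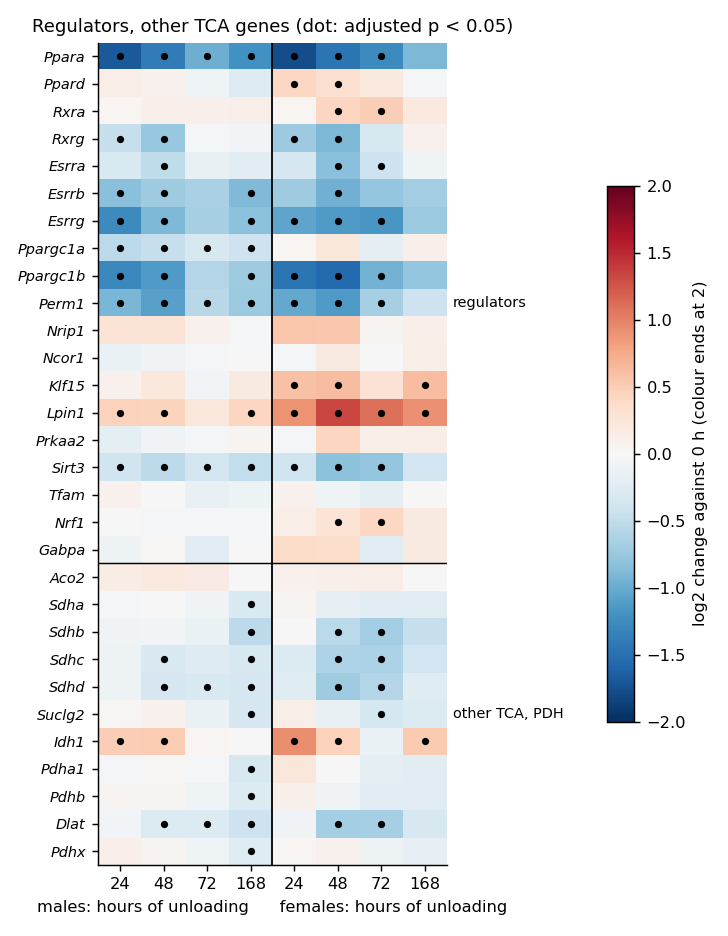
Log2 change against 0 h of 19 regulators (above) and 11 other TCA cycle and pyruvate dehydrogenase genes (below) at each time in males (left 4 columns) and females (right 4 columns), with a dot where the adjusted p was under 0.05 and colours that end at 2. Ppara, Ppargc1b, Perm1 and Esrrg are blue from 24 h on, Lpin1 is red, and the Sdhc and Sdhd rows are blue at 48 h and later.

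Some markers of oxidative fibres also fell, mostly at 48 h or later. Of 12 markers of slow and intermediate fibres, 2, 3, 4 and 6 fell in males and 1, 5, 6 and 4 in females at the 4 times, and 0 rose, with none listed at 0 in any library. Of all genes 14.4%, 14.7%, 5.22% and 11.5% were lower in males at these times and 10.9%, 17.1%, 13.2% and 4.38% in females. At 24 h the marker counts were close to that background. The summed signal of these 12 markers took 0.245% to 0.785% of a male library at 0 h and 0.1% to 0.359% at 168 h. In females it took 0.401% to 1.2% at 0 h, 0.0837% to 0.719% at 48 h and 0.136% to 0.485% at 72 h. Myh2, the myosin of intermediate fibres, fell with a change of -1.44 (SE 0.35, adjusted p = 0.006) in males and -2.85 (SE 0.42, adjusted p = 3.2e-06) in females at 72 h, and Casq2, the slow calsequestrin, with a change of -1.21 (SE 0.20, adjusted p = 2.1e-05) and -1.98 (SE 0.26, adjusted p = 3.1e-07) at 48 h. Of 11 fast fibre markers, 0, 1, 0 and 0 fell in males and 1, 5, 4 and 0 in females, and 2, 1, 2 and 1 rose in males and 0, 0, 0 and 1 in females. Of all genes 14.8%, 16.3%, 5.61% and 11.0% rose in males and 13.8%, 21.0%, 16.8% and 6.3% in females. The 4 red cell markers all fell in females at 72 h, with a summed share of 0.0294% to 0.0646% where controls had 0.0423% to 0.159%. The part of these markers in the changes of the 35 genes was not tested.

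The authors' deposited table gives their own ratios and adjusted p-values for each time against 0 h. At an adjusted p under 0.05 it lists 4, 8, 11 and 22 of the 35 genes as changed in males and 12, 12, 16 and 8 in females. All 4, 8, 9 and 21 male and all 9, 12, 15 and 7 female calls made here are among them with the same sign, and 0 have the opposite sign.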

How the data were processed

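RNA from gastrocnemius was sequenced with standard Illumina libraries, per the labels' protocols. The submitters' processing notes list the builds mm10 and mm39 and the tools Partek, DESeq2 and STAR 2.7.8a, without saying what each was used for. The deposited signal per gene and library is a normalized value and not a count. Of values between 2 and 120, 48.6% to 59.9% in males and 48.5% to 70.5% in females came out as whole reads within 0.03 read, so read counts were not recovered and no count test was run. Depth was estimated from the step between low values. Every gene deposited reached a signal of about 100 in at least 1 library (lowest 100.023 in males, 100.005 in females). The authors' deposited table also gives a ratio and an adjusted p-value per time, used only where it is named.

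Each table was fitted apart with limma 3.58.1 in R 4.3.3 on log2 (signal plus 1), with 1 mean per group, a trended robust variance prior and Benjamini-Hochberg adjustment over all its genes. Fold changes on this scale understate those of low genes. The sex difference came from a joint fit of the shared genes, and signals of males and females were not compared directly. On simulated data this fit recovered 78.0% of male changes of 0.5 and 96.0% of 1.0 on the log2 scale over 12853 genes, and 38.0% and 82.0% of female ones over 11068. Only 100 genes of each size were changed, in the 168 h group. Far more genes were called against 0 h in the data, so these rates need not hold for the comparisons reported. Tables were joined and drawn with Python 3.11.15, pandas 2.3.3, numpy 2.4.6 and matplotlib 3.10.9, and near copies were aligned with Biopython 1.88.

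The members and gene lists were chosen with earlier results of these data known. Signals in every group are given for Cs, Fabp3 and members called in at least 4 of the 8 comparisons with 0 h, and other members are given by their changes. From the other lists up to 3 genes per comparison, those with the smallest p, could be named. Slc25a20, the comparison of female 72 h with 24 h and the promoters printed were chosen after their values were seen. Gene positions are those of the deposited tables, whose build is not named. Alternatives were a pseudocount of 10, a mean signal of at least 200, a plain variance prior, equal library totals, quantile normalization, array weights, leaving out libraries that stood apart, each subset of male 72 h libraries, and leaving out each library.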

Additional observations from a re-analysis of the deposited data

Results flagged for a closer look

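In 100 groups of named members, 6 held a library far from the rest by Dixon's criterion, which chance gives in about 1 in 20 groups. Dlst was 6050.71 in male 72 h replicate 1, where the other 8 libraries lay from 7049.95 to 7775.42. Dlst was 4446.51 in female 0 h replicate 7, above the other controls at 3644.82 to 3910.44. Mdh1 was 7495.02 in female 72 h replicate 5, above the others at 5065.42 to 6052.21. Bdh1 was 79.0234 in male 168 h replicate 5, below the others at 235.96 to 393.442. Bdh1 was 10.328 in female 48 h replicate 7, below the others at 60.5715 to 195.259. Cs was 6202.42 in female 72 h replicate 7, below the others at 8422.38 to 10471.1. Female 0 h replicate 7 and female 72 h replicate 5 are among the 7 female libraries that stood apart from their groups.

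The female change exceeded the male change in 4 tests of that difference among the regulators and other lipid genes, in limma's joint fit over 10964 genes. Of all genes 0.301% were called in either direction at 48 h and 2.44% at 72 h. The sexes are numbered apart, and female libraries at 72 h were among the shallowest. Sex therefore cannot be told apart from numbering, nor from depth at 72 h. For Lpin1 the difference was 0.89 at 48 h (adjusted p = 0.017) and 0.88 at 72 h (adjusted p = 0.0076) on the log2 scale. For Pnpla2 it was 0.84 at 72 h (adjusted p = 0.042). For Acacb it was 0.56 at 72 h (adjusted p = 0.029).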

How the results depend on the processing

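No member that was called, as reported or under an alternative, reversed its direction under the alternatives run. A pseudocount of 10 and a mean signal of at least 200 kept each count of members within 1.5 times. With array weights the counts were 14 for male 72 h (9 as reported), 8 from male 72 to 168 h (0), 23 for female 72 h (15), 17 for female 168 h (7), 9 from female 24 to 48 h (16), 2 from female 72 to 168 h (1) and 2 for the sex difference at 72 h (0). Equal library totals gave 1 from male 72 to 168 h, 17 from female 24 to 72 h (28) and 9 from female 24 to 48 h. Quantile normalization gave 1 from male 72 to 168 h, 19 for female 48 h (12) and 11 for female 168 h. Without the libraries that stood apart, 2 were called from female 72 to 168 h and 1 for the sex difference at 72 h. From male 48 to 72 h (11), the subsets of 72 h libraries gave 0 and 7. The cause of these shifts was not tested. The subsets of 72 h libraries also held fewer libraries, and the part of that was not tested either.

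Leaving out 1 library at a time gave 3 to 5, 7 to 10, 7 to 11 and 17 to 25 calls for males at 24, 48, 72 and 168 h, and 7 to 11, 10 to 13, 12 to 17 and 7 to 9 for females. Between times it gave 0 to 0 from male 24 to 48 h, 6 to 14 from 48 to 72 h and 0 to 1 from 72 to 168 h. It gave 8 to 23 from female 24 to 48 h, 21 to 32 from 24 to 72 h, 0 to 0 from 48 to 72 h and 1 to 1 from 72 to 168 h. For the sex differences it gave 0 to 0 at 24, 48 and 168 h and 0 to 1 at 72 h. No paired analysis was possible because replicates were numbered in record order and the labels tie no mouse of one group to another. Whether the lower depth of female libraries at 24 and 72 h limited the calls was not tested.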

Other observations

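Of 6 other known targets of the PPAR receptors, those called were mostly higher in males. In males 3, 3, 0 and 2 rose and 1, 1, 0 and 1 fell at the 4 times, and in females 1, 3, 0 and 1 rose and 1, 1, 1 and 1 fell. The gene that fell was Plin2 each time. Of all genes 14.8%, 16.3%, 5.61% and 11.0% rose and 14.4%, 14.7%, 5.22% and 11.5% fell in males. For females these shares were 13.8%, 21.0%, 16.8% and 6.3% higher and 10.9%, 17.1%, 13.2% and 4.38% lower. Pdk4, the kinase that shuts off pyruvate dehydrogenase, rose in males by 2.11 (SE 0.50, adjusted p = 0.0017) at 24 h, 2.11 (SE 0.49, adjusted p = 0.0012) at 48 h and 2.18 (SE 0.50, adjusted p = 0.0017) at 168 h. In females it rose by 2.31 (SE 0.60, adjusted p = 0.0025) at 48 h and 2.02 (SE 0.62, adjusted p = 0.03) at 168 h. All p-values here are limma's.

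At least 1 endothelial marker was called in each of the 8 comparisons with 0 h, some higher and some lower. Of all genes 14.8%, 16.3%, 5.61% and 11.0% rose and 14.4%, 14.7%, 5.22% and 11.5% fell in males at the 4 times. For females these shares were 13.8%, 21.0%, 16.8% and 6.3% higher and 10.9%, 17.1%, 13.2% and 4.38% lower. Whether the marker counts below differ from these shares was not tested. Of 8 endothelial markers 2, 2, 1 and 1 rose in males and 2, 2, 1 and 2 fell, and in females 1, 0, 0 and 0 rose and 1, 2, 2 and 1 fell. Kdr, a receptor for VEGF, was lower in 7 of the 8, and Cldn5, a tight junction protein, was higher in 5. Of 8 adipocyte markers 0 rose in males and 0, 1, 2 and 2 fell, and in females 0, 1, 1 and 1 rose and 0 fell. Of 7 macrophage markers 0 were called in males, and in females 1 rose at 48 h, 1 fell at 72 h and 1 rose at 168 h. Of 4 red cell markers 0 were called in males, and in females all 4 fell at 72 h.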
